A study of Mus musculus with 6 samples.

Results

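The miRNAs described here are the later-numbered mouse miRNAs that the arrays detected in sorted bone marrow endothelial cells (ECs). They carry a number from 1800 to under 6300 in their name and were called detected on at least 1 of 6 arrays, with miR-2861, miR-3082 and miR-3960 left out by the rule. Of the 313 such miRNAs on the array, 44 (14.1%) were members, out of 348 miRNAs detected in all and 1881 on the array. The members were chosen by the scanner's detection flags, so the number detected is a description and not a result about them. The detected numbers ran from miR-1839-3p to miR-5622-3p. The nearest detected miRNAs outside the range were miR-1306-3p and miR-6348, and the brightest miRNAs in the range that missed detection were miR-3473c, with a mean signal of 3.30, miR-5046 with 2.55 and miR-5119 with 2.32.

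The arrays were made to find miRNAs that differ between endothelial cells of type H vessels, which accompany bone formation, and those of type L vessels, as told apart by the surface proteins CD31 and endomucin (Emcn). Type H ECs, with the surface phenotype CD31hiEmcnhi, and type L ECs, CD31loEmcnlo, came from the bone marrow of wild type C57BL/6 mice aged 1 month, with 3 arrays of each cell type. No allele, transgene or drug distinguishes the groups, which differ in the sorting gate. The labels call the arrays of a group biological replicates, and whether animals were pooled is not given in the sources used here. According to the labels the sorted cells were cultured in endothelial growth medium before RNA extraction, a step absent from the array methods, and the mice are male in the labels and female in the methods. All arrays of type H ECs lay on 1 slide and all arrays of type L ECs on another, and slide cannot be told apart from cell type. Each of the 10 control features detected on every array had more signal on the slide of the type H arrays, by its total as deposited. The log2 differences were 0.21 to 1.47, and the part of these controls in the results below was not tested. Neither arm of miR-126a, used here as the endothelial marker, was detected (0 of 2), nor were 6 haematopoietic markers (0 of 6). Of 7 stromal and mural markers, 7 were detected on at least 1 array and 6 on all 6 arrays. The summed signal of these 7 was 898 to 1137 on the type H arrays and 769 to 879 on the type L arrays.

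A mature miRNA guides a silencing complex to messenger RNAs, mostly through its seed, the stretch from base 2 to base 8. MiRNAs are numbered in the order in which they were registered, so the early numbers hold the abundant, conserved families, and the later ones hold many species that came from deep sequencing of small RNA. Among these are short RNAs whose letters resemble transfer RNA or repeat elements and small RNAs cut from introns.

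The members that carry most of the signal, that share letters with each other, or that differ most between the cell types are printed here from 5′ to 3′, with the seed in capitals. The sequences and positions are those of RefSeq on GRCm38.p6, which listed 37 of the 44 members. The first 3 are the brightest members and share the run AUCCCA. MiR-5126 is the fourth brightest and consists of G and C alone. The next 4 bear the name miR-3473. The 3 after these had the largest differences towards type L ECs among the tested members, and the last 4 rose or belong to the same hairpin as one that did.
miR-3963: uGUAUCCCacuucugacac
miR-5100: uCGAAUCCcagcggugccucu
miR-3968: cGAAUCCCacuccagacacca
miR-5126: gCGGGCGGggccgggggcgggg
miR-3473a: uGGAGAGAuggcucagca
miR-3473b: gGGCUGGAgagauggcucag
miR-3473e: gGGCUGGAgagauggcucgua
miR-3473g: cAAAAGUGaggcuggggaga
miR-1934-3p: aGGAUGACgguggggcugguga
miR-1894-3p: gCAAGGGAgagggugaagggag
miR-3102-5p: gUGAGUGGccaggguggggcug
miR-3620-5p: cUGUGGGCugggcugggaagca
miR-3620-3p: cUGCUCAGccccgcccacccca
miR-3475-5p: aAAUCAUGuacccccacagagg
miR-3092-3p: gAAUGGGGcuguuuccccucc
MiR-3963 is annotated at chr3:151023839-151023857 on the minus strand, outside any other gene. MiR-5100 lies at chr11:60728698-60728718 within the span of Mief2, and miR-3968 at chr11:115447969-115447989 on the minus strand within Trim80. MiR-5126 lies at chr1:84695890-84695911 within Dner, which encodes a Notch-like transmembrane protein. Of the 37 members with a sequence, 34 lie within the span of another RefSeq gene and 28 within that of a protein-coding gene. Among these hosts are non-coding transcripts of the imprinted Dlk1-Dio3 region, namely Meg3 for miR-1906 and Mirg for miR-3072-5p, and miR-3544-3p lies within the span of the coding gene Rtl1 of the same region. Whether a member is exonic or intronic was not analysed here. For miR-1949, which this sequence set lacks, the part read by its longer probe is caggatgtcagcatagtt.

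Signal per miRNA was the sum of the totals of its probes, in the scanner's intensity units and without scaling between arrays unless stated. The members spanned a wide range. Their mean signal over the 6 arrays exceeded 100 for 6 members, lay between 20 and 100 for 3 and was under 20 for 35, of which 26 were under 10. MiR-3963 was the brightest member and held the second highest rank of all 1881 miRNAs on every array. Its signal was 8360.4, 7431 and 6839 on the type H arrays and 7354, 7359.9 and 7578 on the type L arrays. The type L values fell inside the range of the type H values. Its mean was 5.21 times that of the next member. Because it held rank 2 on every array, quantile normalization, which gives every array the same set of values, gave it the same value everywhere and its normalized log2 fold change of 0 is fixed by that step. After each array was instead scaled on its 75th percentile, the log2 fold change was -0.08 (standard error, SE, 0.062, adjusted p = 0.23, limma with Benjamini-Hochberg adjustment), and no difference was detectable. In the authors' deposited log2 table, whose values were normalized separately, it was -0.59 (adjusted p = 9.5e-06, limma), and the cause of this gap was not tested.

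MiR-5100 followed, at 1347, 1299.9 and 1171 on the type H arrays and 1559.8, 1599 and 1647 on the type L arrays. Every type L array was above every type H array, and the normalized log2 fold change of type H over type L was -0.32 (SE 0.065, adjusted p = 0.0044, limma). MiR-3968 read 743, 651 and 585 in type H ECs and 721, 708 and 726.5 in type L ECs. These ranges overlapped and the fold change of -0.03 did not pass (adjusted p = 0.30, limma), although after 75th percentile scaling it was -0.23 (adjusted p = 0.0097, limma). The median of all tested miRNAs was -0.27 under that scaling. MiR-5126 read 518, 447 and 448 against 674, 682 and 674. The type L arrays stood above the type H arrays with little spread among themselves, and the fold change was -0.37 (SE 0.066, adjusted p = 0.0026, limma).

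**Figure D1:**
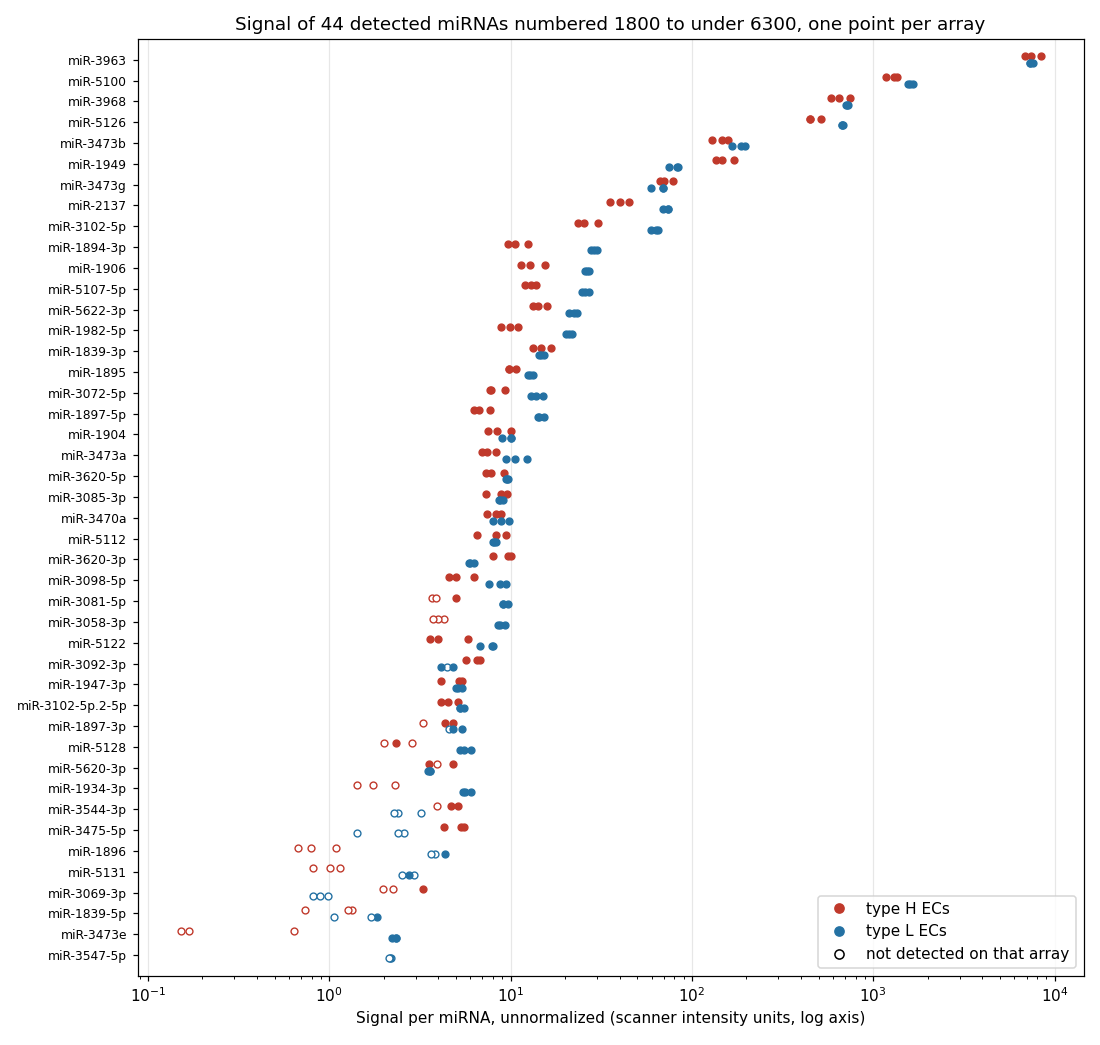
Unnormalized signal of the 44 members on a log axis, in scanner intensity units, with 1 point per array, red for type H ECs and blue for type L ECs. Open points mark arrays on which the miRNA was not detected, and 3 values of miR-3547-5p at or below 0 are not drawn. MiR-3963 stands alone at the top, and blue points lie to the right of red points for most members in the middle of the range.

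The members together gave a similar share of the signal of all detected miRNAs. This share was 14.7%, 14.9% and 14.6% on the type H arrays and 14.3%, 14.0% and 14.3% on the type L arrays. The means were 14.7% ± 0.13 (SD, n = 3) and 14.2% ± 0.14 (SD, n = 3). The groups did not overlap, and the difference of 0.51 percentage points had an exact two-sided permutation p of 0.10, the smallest that 3 arrays against 3 allow. MiR-3963 alone made up 71.1 to 71.5% of the members' signal on the type H arrays and 66.0 to 66.6% on the type L arrays. Without miR-3963 the other members held 4.66 to 4.81% of the detected signal in type H ECs and 5.26 to 5.32% in type L ECs, and the difference turned to -0.56 points (exact permutation p = 0.10). The share also moves with miR-6366, the brightest miRNA on every array, which held 54.0 to 56.2% of the detected signal in type H ECs and 58.6 to 60.04% in type L ECs. With miR-6366 left out of the total the difference was -2.05 points (exact permutation p = 0.10), and with the totals as deposited, which for some miRNAs include the signal of another, it was -0.56 points (exact permutation p = 0.20). The miRNAs numbered under 1800 held 27.0 to 29.4% and 22.5 to 24.1% on the type H and type L arrays, and those numbered 6300 and above 55.7 to 57.9% and 61.0 to 62.6%.

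**Figure D2:**
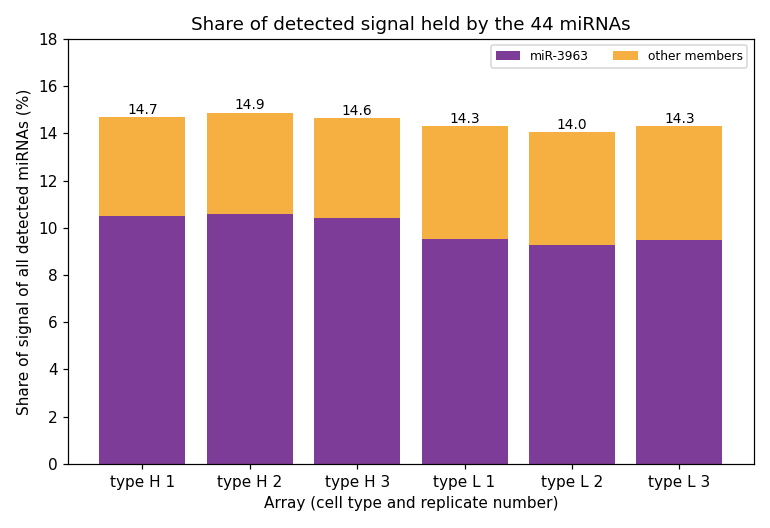
Share of the signal of all detected miRNAs held by miR-3963 (purple) and by the other members (orange), in percent, with 1 bar per array. The totals above the bars were 14.6 to 14.9% on the type H arrays and 14.0 to 14.3% on the type L arrays, with a taller purple and a shorter orange part on the former.

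Between 32 and 36 members were detected on each type H array and between 35 and 40 on each type L array. On all 6 arrays 29 members were detected. The test needed a miRNA to be detected throughout type H ECs or throughout type L ECs, which 36 members met and 8 did not. Of the 36, 29 met it in both cell types and 7 through 1 cell type alone. For 6 of these 7 that was the cell type with the higher normalized signal (the exception was miR-5620-3p), so that their direction was partly set by the entry rule.

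Of the 36 tested members, limma with Benjamini-Hochberg adjustment over 311 miRNAs called 13 higher and 18 lower in type H than in type L ECs at the threshold of 0.05. Over all 311 miRNAs tested, 44.7% were called higher and 42.1% lower, 86.8% in either direction, so that being called sets a member apart from few others. These are calls in RNA of bulk samples, in which fewer cells of a type and less RNA per cell cannot be told apart. The median log2 fold change was -0.22 for the members and 0.03 for all tested miRNAs. Of the 29 members detected on all 6 arrays, 10 were called higher and 14 lower, against 48.5% and 35.1% of the 231 miRNAs so detected. A called change of at least 2-fold was seen for 2 of these 29 after quantile normalization, miR-1894-3p and miR-3102-5p. It was seen for 6 after 75th percentile scaling and 5 without normalization. Of the 231 miRNAs so detected, 33, 46 and 42 were called with such a change, in the same order of scalings. The division by direction depended on the scaling. After 75th percentile scaling 4 members were called higher and 25 lower, against 31.5% and 56.6% of all tested and 88.1% in either direction, with medians of -0.45 for the members and -0.27 for all. Without normalization 4 were higher and 20 lower, against 30.5% and 45.3%, and 75.9% in either direction, with medians of -0.35 and -0.17. Under all 3 scalings the same 4 members were called higher, namely miR-1949, miR-3092-3p, miR-3620-3p and miR-3475-5p, and the same 18 were called lower. Of these, 2 of the 4 and 14 of the 18 were detected on all 6 arrays. The matching counts over all tested miRNAs were not made, so the 4 and the 18 are not read as a trait of the members. In the unnormalized signals the groups did not overlap for 4 tested members that were higher and 22 that were lower in type H ECs, against 31.8% and 46.9% of all tested miRNAs, and they overlapped for 10.

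**Figure D3:**
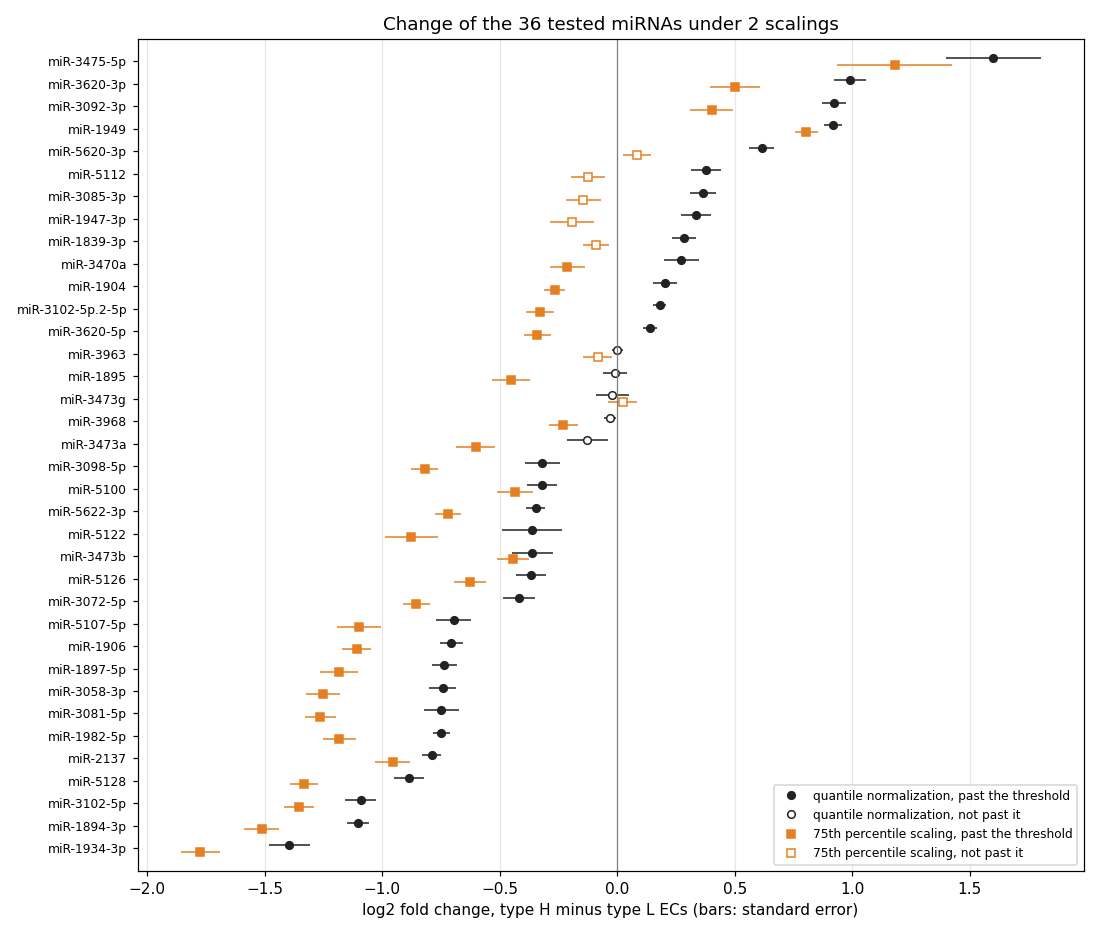
Log2 fold change of type H over type L ECs with its standard error for the 36 tested members, after quantile normalization (black circles) and after 75th percentile scaling (orange squares). Filled symbols had an adjusted p under 0.05 from limma. The members at the bottom lie left of 0 under both, 4 at the top lie right of 0 and are filled under both, and 8 called higher after quantile normalization lie left of 0 after 75th percentile scaling.

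Among the members detected on all 6 arrays, the falls called under all 3 scalings were led by miR-1894-3p and miR-3102-5p. MiR-1894-3p, annotated within the gene of the phosphatase regulator Ppp1r10, read 12.4, 10.6 and 9.68 on the type H arrays and 30.1, 28.9 and 27.8 on the type L arrays. Type L arrays were above type H arrays without overlap, and the normalized log2 fold change was -1.10 (SE 0.048, adjusted p = 9.0e-06, limma). With normexp, which adds an offset of 50 to every spot, it was -0.43. MiR-3102-5p, from the span of the exchange factor gene Arhgef17, read 30.3, 23.6 and 25.4 in type H ECs and 59.6, 65.0 and 63.7 in type L ECs. All type L values again exceeded all type H values, with a fold change of -1.09 (SE 0.067, adjusted p = 2.7e-05, limma). MiR-2137, within Zfp185, read 45.1, 40.3 and 35.4 against 73.8, 74.2 and 69.5. The groups did not overlap and the fold change was -0.79 (SE 0.042, adjusted p = 1.7e-05, limma).

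MiR-1906, whose host transcript Meg3 is a maternally expressed long non-coding RNA, read 15.4, 12.8 and 11.4 in type H ECs and 26.5, 27.0 and 25.6 in type L ECs. The ranges were apart, and the log2 fold change was -0.71 (SE 0.049, adjusted p = 4.3e-05, limma). The same mature letters are also annotated on chromosome X, and the array cannot tell these places apart. MiR-3072-5p, from Mirg in the same imprinted region, read 9.36, 7.81 and 7.70 against 13.0, 13.8 and 15.1. It was lower on every type H array, with a fold change of -0.42 (SE 0.067, adjusted p = 0.0015, limma). The other falls named by the rule were miR-1982-5p at -0.75, from the span of Oaz1, which encodes the antizyme that restrains polyamine synthesis, miR-1897-5p at -0.74 and miR-5107-5p at -0.70, with SEs of 0.036 to 0.073. Their unnormalized type L to type H ratios were 2.11, 2.11 and 1.997. After 75th percentile scaling the log2 fold changes of these 3 were -1.18, -1.19 and -1.10.

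The rise with the most signal was that of miR-1949. It read 169.6, 147 and 136 on the type H arrays and 74.6, 83.2 and 83.4 on the type L arrays. All type H arrays were higher, and the log2 fold change was 0.92 (SE 0.038, adjusted p = 7.9e-06, limma) after quantile normalization and 0.80 (SE 0.050, adjusted p = 3.3e-06, limma) after 75th percentile scaling. Both of its probes rose, with log2 ratios of unnormalized signal of 0.76 and 0.93. MiR-3620-3p was dim, at 9.63, 10.1 and 8.02 against 6.30, 5.99 and 5.93. Its groups did not overlap, and the fold change was 0.99 (SE 0.068, adjusted p = 4.3e-05, limma) but 0.50 (adjusted p = 0.0032, limma) after 75th percentile scaling. Its size varied more than that of miR-1949 with how the signal was formed, from 0.21 with normexp to 1.28 with detected probes only, 1.33 in the authors' table and 1.82 with the totals as deposited, and it was called higher in each. MiR-3092-3p, within the span of Fndc3b, read 6.80, 6.55 and 5.70 in type H ECs and 4.46, 4.14 and 4.84 in type L ECs, where 1 array did not detect it, so that it entered the test through type H ECs. Type H arrays were higher without overlap, with a log2 fold change of 0.92 (SE 0.052) and of 0.40 after 75th percentile scaling. The direction for miR-3092-3p was partly set by this entry, so no p is given.

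The remaining rises were small and rested on quantile normalization. MiR-5112 (0.38), miR-3085-3p (0.36), miR-1947-3p (0.33), miR-1839-3p (0.28), miR-3470a (0.27), miR-1904 (0.20), miR-3102-5p.2-5p (0.18) and miR-3620-5p (0.14) were called higher with it and had log2 fold changes below 0 after 75th percentile scaling, from -0.09 to -0.34. The part of miR-3470a that its probes read occurs whole in miR-3470b, so that value is not of miR-3470a alone. With the totals as deposited, which for these miRNAs held the signal of another on 1 or more arrays, miR-1947-3p read 3.37 and miR-3102-5p.2-5p 2.11. After 75th percentile scaling, miR-3470a, miR-1904, miR-3102-5p.2-5p and miR-3620-5p of these 8 were called lower. The median of all tested miRNAs was itself -0.27 under that scaling. Relative to it these members stood at 0.05, 0, -0.06 and -0.07, in the same order. MiR-1839-3p shows how the unnormalized values look for such a member. They were 16.6, 14.8 and 13.4 in type H ECs and 14.3, 14.8 and 15.2 in type L ECs, and the groups overlapped. MiR-5620-3p was called higher at 0.61 and read 0.08 (adjusted p = 0.21, limma) after 75th percentile scaling.

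A total of 3 members were detected on every array of 1 cell type and on no array of the other. MiR-3475-5p was the one on the type H side, at 5.35, 5.54 and 4.28 against 2.59, 1.42 and 2.41 on type L arrays that did not detect it. It lies within the span of Frmpd3 on chromosome X. It was at least 2.27-fold higher in type H ECs, the lowest of the values under the 3 scalings (3.03-fold after quantile normalization). A bound of this kind compares the mean of the brighter cell type with a value from each array of the other. That value is the higher of the miRNA's own signal and the lowest detected signal. For these 3 members their own signal was the higher on every array. The values are therefore plain ratios of signal, the lowest of the 3 scalings, and not limits set by detection. On the type L side, miR-1934-3p read 5.49, 6.05 and 5.59 against 2.31, 1.75 and 1.42 on type H arrays that did not detect it. It was at least 2.63-fold higher in type L ECs over the 3 scalings. MiR-3058-3p, within Nudt4, read 8.56, 9.33 and 8.71 against 4.28, 3.98 and 3.73. It was at least 1.67-fold higher in type L ECs over the 3 scalings, and its undetected type H signals exceeded those of several detected members, since detection is set by each probe's own error. These 3 members entered the test only through the cell type in which they were brighter, so no p is given. How the undetected signal was treated moved the log2 difference of type H from type L ECs widely. For miR-3475-5p, miR-1934-3p and miR-3058-3p it was 0.19, -0.14 and -0.13 with normexp and its offset, and 5.72, -5.14 and -6.19 in the authors' table. The bounds above are of the probe sums under the 3 scalings and do not hold with normexp. A further 4 members were detected on all arrays of 1 cell type and on some of the other. MiR-5128 and miR-3081-5p were each found on 1 type H array and had log2 fold changes of -0.89 and -0.75.

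For 2 hairpins both products were members detected on every array, and in each the ranges of their ratio in the 2 cell types were apart. The log2 ratio of miR-3620-5p to miR-3620-3p was -0.37 to -0.06 on the type H arrays and 0.60 to 0.70 on the type L arrays, a change of -0.84. MiR-3620-3p was called higher under all 3 scalings, while the direction of miR-3620-5p turned with the scaling. The log2 ratio of miR-3102-5p to miR-3102-5p.2-5p, which lie next to each other on 1 arm of the same hairpin, was 2.39 to 2.62 in type H ECs and 3.50 to 3.63 in type L ECs, a change of -1.02. For miR-1897-5p and miR-1897-3p it was 0.62 to 0.94 and 1.40 to 1.74, a change of -0.82, but miR-1897-3p was not detected on 1 array of each cell type, and that ratio rests in part on signal at the detection limit. In all 3 pairs the groups did not overlap and the exact two-sided permutation p was 0.10, the smallest possible. The matching count over other hairpins was not made, so this is not read as a trait of these hairpins. For single miRNAs, the unnormalized groups did not overlap for 31.8% of all tested that were higher and 46.9% that were lower in type H ECs. Such ratios do not depend on the scaling of an array. They compare probes of unlike letters, so the level of a ratio has no meaning and only its change between cell types is described. The other pair of arms, miR-1839-5p and miR-1839-3p, had no usable ratio, since miR-1839-5p was detected on 1 type L array.

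Members that share letters did not all behave alike. AUCCCA, the run common to miR-3963, miR-3968 and miR-5100, occurs in 7 of 1679 mature mouse miRNAs (0.417%) in RefSeq. MiR-3968 and miR-5100 share the longer run CGAAUCCCA and miR-3963 and miR-3968 share AUCCCACU, and no seed is common to any pair of them. As background, the T arm of transfer RNAs carries letters of this kind. Their log2 fold changes after 75th percentile scaling, which leaves miR-3963 free to move, were -0.08, -0.23 and -0.43 for miR-3963, miR-3968 and miR-5100. The last of these was called under all 3 scalings and the first under none.

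The miR-3473 members fall into 2 kinds by sequence. MiR-3473b and miR-3473e share the seed GGCUGGA and the run GGGCUGGAGAGAUGGCUC, and miR-3473a holds UGGAGAGAUGGCUCAG in common with miR-3473b. The part of miR-3473b that its probes read occurs whole in miR-3473a, so these array signals are not independent of each other. As background, the letters resemble the start of the B2 family of short interspersed repeats. MiR-3473b was called lower under all 3 scalings, with signals of 157, 147 and 129 in type H ECs and 165, 187 and 197 in type L ECs. Its type L arrays were higher without overlap, and the log2 fold change was -0.36 (SE 0.087, adjusted p = 0.0091, limma). MiR-3473a read 8.28, 7.45 and 6.92 against 9.38, 10.5 and 12.3, also without overlap. Its fold change of -0.13 did not pass (adjusted p = 0.21, limma) and after 75th percentile scaling it was -0.60 (adjusted p = 0.00025, limma). MiR-3473e, found on 2 type L arrays alone, was not tested. MiR-3473g shares neither run. It read 78.7, 70.5 and 66.7 against 59.8, 69.1 and 69.2, the groups overlapped, and no difference was detectable under any of the 3 scalings. A shorter run, GAUGGCU, is common to miR-3473a, miR-3473b, miR-3473e and miR-5128 and is found in these 4 of the 1679 mature miRNAs (0.238%).

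The direction of change and the G content of the stretch read by the probes were related across the tested members, with exceptions given below. An array probe pairs with the 3′ end of its miRNA, and those of the members read 10 to 19 bases. In the stretches read, the median G content of the 44 members was 45.0%, against 28.6% for detected miRNAs numbered under 1800 and 47.1% for those numbered 6300 and above. For the members' range, miRNAs that were not detected had a median of 29.4%. Across the 36 tested members, Spearman's rho between G content and the normalized log2 fold change was -0.69 (Pearson's r = -0.66), and it was -0.71 after 75th percentile scaling. These points share their arrays and 2 slides, and miRNAs are not independent replicates, so the value describes these arrays. The 36 include members that entered the test through 1 cell type alone, and for most of these the direction was partly set by that entry. Among them are miR-3475-5p (21.4% G, 1.60) and miR-1934-3p (64.3% G, -1.40), towards the ends of this relation. The value over the 29 members detected on all 6 arrays was not computed. C content ran the other way, with a rho of 0.55, and G and C together gave -0.22. The same relation was -0.32 across 205 tested miRNAs numbered under 1800 and -0.41 across 67 numbered 6300 and above. The control features that were brighter on the type H slide differ along the same contrast, and their part in this relation was not tested.

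Of the 24 tested members with a G content of at least 40%, 17 were called lower and 5 higher after quantile normalization, and 22 lower and 0 higher after 75th percentile scaling. Of other miRNAs with such a G content, 26 of 41 numbered under 1800 were called lower and 8 higher, and 32 of 43 numbered 6300 and above lower and 5 higher. After 75th percentile scaling these were 33 and 5, and 39 and 0. Of the 11 with under 30%, 1 was called lower and 8 higher, and 2 lower and 4 higher after 75th percentile scaling. With under 30% G, 26 of 109 miRNAs numbered under 1800 were called lower and 73 higher, and 3 of 16 numbered 6300 and above lower and 10 higher. Under 75th percentile scaling these were 38 lower and 59 higher, and 6 lower and 9 higher. The G-rich group holds the 8 largest falls among members detected on all arrays, and among its falls are miR-1934-3p (64.3% G), miR-3102-5p (61.5%) and miR-3072-5p (69.2%). It also holds miR-5126 (81.8%), whose log2 fold change was -0.37. The G-poor group holds the 4 members called higher under all 3 scalings, of which miR-3620-3p has 8.33% G, and also miR-5100 (28.6% G), which was called lower, and miR-3963 (6.25% G). The run GGGG occurs in 9 of the 37 members with a sequence and in 11.2% of all mature miRNAs. By arm, 7 of the 10 tested 5p members were called lower and 3 higher, and 4 of the 10 tested 3p members lower and 6 higher. Of all tested miRNAs, 44.5% of the 5p arms were called lower and 41.8% higher, and 31.6% of the 3p arms lower and 60.5% higher. The 5p members had a median G content of 51.9% and the 3p members of 21.4%. After 75th percentile scaling 9 of the 5p members were lower and 1 higher, and 4 of the 3p members lower and 2 higher, against 58.2% and 29.5% of all tested 5p arms and 43.9% and 43.9% of all tested 3p arms. The counts of members by G content and by arm include those that entered the test through 1 cell type alone.

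**Figure D4:**
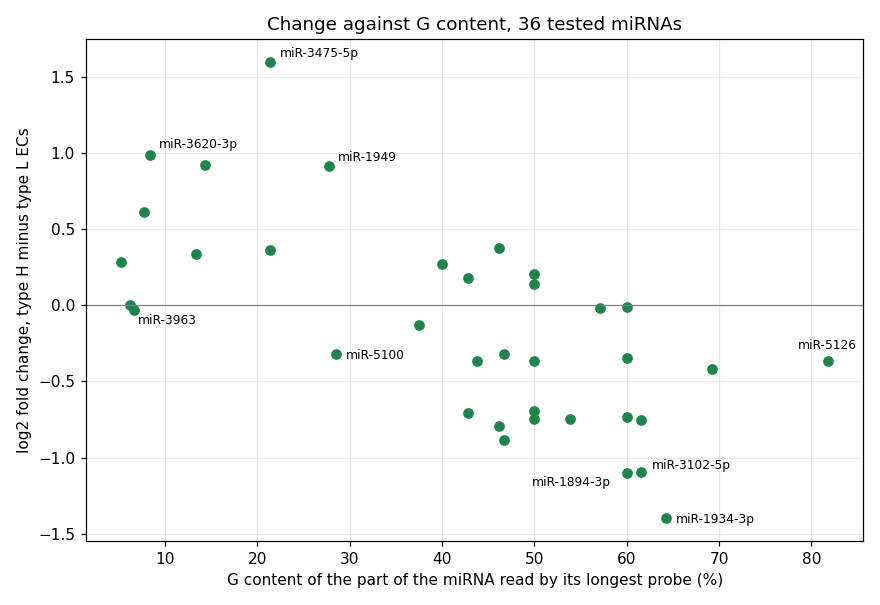
Log2 fold change of type H over type L ECs after quantile normalization against the G content, in percent, of the part of the miRNA read by its longest probe, for the 36 tested members, 1 point each. Members above 0.5 on the log2 scale all have under 30% G and members below -0.5 all have over 40% G. Members that entered the test through 1 cell type alone are included.

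The probes of a member mostly gave like changes. They read nested stretches of the same letters, so their changes are not independent of each other. Of 23 members with at least 2 probes detected on all 6 arrays, 19 had the same sign of the unnormalized log2 ratio for every probe, and in 21 the probes differed by less than 0.25. The widest gap was that of miR-3968, whose probes read -0.42 and -0.09, followed by miR-1839-3p with -0.04 to 0.25. Arrays of 1 cell type had correlations of 0.999 over the 29 members detected on all arrays, and arrays of different cell types 0.977 to 0.982.

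By number, 13 of 83 miRNAs from 1800 to under 2000 were detected, 1 of 4 from there to under 3000 (miR-2137), 21 of 151 from there to under 4000, 9 of 68 from 5000 to under 6000 and 0 of 7 from 6000 on. Names without an arm made up 43.2% of the members, against 8.26% of the detected miRNAs numbered under 1800 and 21.7% of those numbered 6300 and above. Of the 8 tested members numbered from 5000, 6 were called lower and 2 higher, with a median log2 fold change of -0.35. Of the 17 numbered from 3000 to under 4000, 6 were called lower and 7 higher, with a median of -0.02. Over all tested miRNAs, 42.1% were called lower and 44.7% higher. After 75th percentile scaling 6 of the 8 were called lower and 0 higher, and 11 of the 17 lower and 3 higher. The shares of all tested miRNAs were then 56.6% and 31.5%.

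At the dim end, 8 members were detected but not tested. In 4 of them every type L signal exceeded every type H signal, in 2 the order was opposite and in 2 the groups overlapped. This order is tied in part to the detection by which they became members. The matching count over all detected but untested miRNAs was not made. A single array detected 5 members, of which 4 on a type L array (miR-1839-5p, miR-1896, miR-3547-5p and miR-5131) and miR-3069-3p on a type H array. MiR-1896 read 0.68, 0.80 and 1.09 in type H ECs and 4.36, 3.83 and 3.65 in type L ECs, with 1 of these 6 values detected. Such values lie at the detection limit, no test was made of them, and no fold is given. MiR-3544-3p, from the imprinted region, was detected on 2 type H arrays and read 5.10, 4.70 and 3.93 against 3.20, 2.39 and 2.28 on type L arrays that did not detect it. The seed of miR-3547-5p, UGGGAAG, is shared with miR-6404 and miR-6368, which were also detected.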

How the data were processed

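The members and the lists used here were chosen with earlier results of these data known. The arrays were 1-colour Agilent miRNA arrays with 1881 mouse miRNAs, 4415 probes and 30 spots per miRNA. The authors extracted background-subtracted spot intensities, probe totals, a total per miRNA and detection flags with Agilent's Feature Extraction 10.7.1.1, and the deposited intensities carry no scaling between arrays. A deposited table of log2 values is quantile-normalized according to the methods, and its offset is unknown. The array design number in the file headers is not the one in the methods, and the labels describe a cRNA labelling kit where the methods describe small RNA labelled with Cy3. A detection flag equalled having at least 1 probe total over 3 times its error in 11286 of 11286 flags.

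Signal was the sum of the probe totals over distinct probes. The deposited total per miRNA was not the main signal because 33 totals of 15 members also held the total of another miRNA. Quantile normalization ran over all miRNAs, and log2 was taken after a floor of 1. The 311 miRNAs detected throughout either cell type entered lmFit and eBayes (limma 3.58.1, R 4.3.3). P-values were adjusted by Benjamini-Hochberg at a threshold of 0.05, and no block was used, as in the methods. The script was tested on simulated data. P-values measure the spread between these arrays only, and the number of arrays limits the precision. No member spot was saturated (0). Lower bounds on folds are the lowest of 3 scalings. The lowest detected signal of each array was to enter them, but it was below the members' own signal on every array.

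Named were the 10 brightest members, the 8 largest rises and falls among members detected on all arrays without overlap, members confined to 1 cell type by detection, arms of 1 hairpin, members detected on 1 array and miRNAs sharing a seed with these. Others were named after their values were seen. Positions in the array files are on mm9 and were not mixed with those of RefSeq. Sequences were absent for miR-1839-3p, miR-1897-5p, miR-1949, miR-3470a, miR-5107-5p, miR-5112 and miR-5620-3p. Alternatives covered the scaling, the signal and its background, the detection filter, the floor, the test, a replicate block and each array left out. The sum over detected probes only, a higher floor and the share without miR-3963 were added after seeing the data.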

Additional observations from a re-analysis of the deposited data

How the results depend on the processing

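Of 537 values computed for 27 named members under alternatives, 496 kept their direction and their side of the threshold, 21 reversed, 16 lost and 4 gained a call. The number of members called higher was 13 and fell to 4 after 75th percentile scaling, to 4 without normalization and to 7 with the totals as deposited. With an array left out in turn, 12 to 14 were called higher and 17 to 20 lower. The 18 called lower became 25 after 75th percentile scaling, 20 without normalization and 12 with the totals as deposited. The share difference of 0.51 points turned to -0.56 with the totals as deposited, -2.05 without the brightest miRNA and -0.56 without miR-3963, and was 0.43 to 0.56 with an array left out.

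After 75th percentile scaling and without normalization, the log2 fold changes that reversed were those of miR-5112 (-0.12 and -0.024), miR-3085-3p (-0.15 and -0.045), miR-1947-3p (-0.19 and -0.091), miR-3470a (-0.21 and -0.11), miR-1904 (-0.27 and -0.17), miR-3620-5p (-0.34 and -0.24), miR-3102-5p.2-5p (-0.33 and -0.23) and miR-3473g, which was not called (0.023 and 0.12). MiR-1839-3p reversed to -0.091 after 75th percentile scaling. With the totals as deposited miR-3072-5p reversed to 0.32, since 1 of its totals then held the signal of another miRNA, and miR-3473g to 0.00084. MiR-3473g ranged from -0.098 to 0.032 with an array left out, was called without type L replicate 1 (-0.10, adjusted p = 0.039, limma) and reversed without type L replicate 2 or 3. MiR-3470a lost its call without type H replicate 2 or 3 or type L replicate 3, at 0.24 to 0.26 and adjusted p of 0.052 to 0.053.

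Same-numbered arrays did not deviate together (correlations 0.016, -0.12 and 0.15). With the replicate block 13 members were called higher and 18 lower, as without it. The methods' t-test gave 13 and 17. The fit without a filter gave 13 and 19, but most of its residual variances were 0 and its p-values are not reliable. The planned floor was 0.779, under the 1 used, and gave 13 and 18, as did a floor of 1.73. Members under the detection limit have no measured change.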
